A study of Macaca mulatta with 20 samples.

Results

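The C-type lectin receptors of myeloid cells were followed in the blood of rhesus macaques (*Macaca mulatta*) before and after irradiation of the thorax. The group holds 7 genes, CLEC4A, CLEC4D, CLEC4E, CLEC5A, CLEC7A, CLEC12A and CLEC10A, which are read by 9 probes of an Agilent Whole Human Genome array. A probe was kept for testing when its signal was well above the local background on at least 5 of the 20 arrays, which 6 probes of 5 of the genes met. Over the whole array 19961 of 34127 probes met it, under 15929 of 25992 gene names. The single probes of CLEC4E and CLEC5A did not meet it, nor did a second probe of CLEC4D.

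Whole blood of 8 male animals of Chinese origin was sampled in the arm of the study that received no mitigator of lung injury. The 4 groups of 5 arrays each are the pre-irradiation samples, drawn shortly before a single dose of 10 Gy of X-rays to the thorax, and samples of day 2, day 5 and day 30 after it. No group of unirradiated animals was sampled at the later times, so that time and irradiation cannot be told apart, and supportive drugs (ketoprofen and buprenorphine) were given as needed. RNA of one sample was pooled from a pair of animals, and the labels do not say which. Arrays of 1 replicate number were compared as a pair, as the study's methods pair comparisons by animal, but the labels do not tie a number to an animal.

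C-type lectin receptors are transmembrane proteins that bind sugars and other ligands of microbes and of dying cells. The activating members signal through the kinase SYK and the scaffold CARD9, either from a tyrosine motif of their own or through an adaptor protein with such motifs. The inhibitory members carry a motif that recruits the phosphatases PTPN6 and PTPN11. In blood these receptors are found mainly on monocytes, neutrophils and dendritic cells.

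CLEC7A (Dectin-1) binds beta-glucan of fungal cell walls and carries a tyrosine motif, the hemITAM, in its cytoplasmic tail. It was read by both of its probes, A_24_P235988 and A_24_P227415. Sequences are shown for CLEC12A and CLEC4D, as examples of members that were read by a single kept probe. The CLEC12A probe lies on the forward strand of human chr12:10132085-10133201 (build hg19), a span of 1117 bases for 60 bases of probe, so that it reads spliced RNA.
CLEC12A A_23_P128470: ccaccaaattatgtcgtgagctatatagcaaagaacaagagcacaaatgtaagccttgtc
The only CLEC4D probe that was kept lies on the forward strand of chr12:8671658-8671717.
CLEC4D A_33_P3352578: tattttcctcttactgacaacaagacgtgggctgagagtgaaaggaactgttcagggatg

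The other probes are given by position on the same build. The CLEC7A probe A_24_P235988 has 43 of its 60 bases placed, on the reverse strand of chr12:10269366-10269408. The other CLEC7A probe, A_24_P227415, lies on the reverse strand of chr12:10282610-10282669. The CLEC4A probe lies at chr12:8290933-8290992 and the CLEC10A probe at chr17:6978267-6978326. The CLEC4E probe lies at chr12:8685932-8685991, the CLEC5A probe at chr7:141628045-141628104 and the second CLEC4D probe at chr12:8674895-8674954. Exons and untranslated regions were not annotated in the sources used here. All 7 symbols occur in the RefSeq gene table of the macaque assembly T2T-MMU8v2.0. There CLEC4E, CLEC4D, CLEC6A and CLEC4A follow each other, and CLEC7A stands between OLR1 and CLEC1A. How well these human probes match the macaque sequence was not tested.

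Levels below are log2 processed signals minus the 75th percentile of the array, so that a level of 0 is the signal at that percentile. A level tells of 1 probe across arrays and is not compared between probes. The share of spots well above background ran from 50.9% to 67.3% by array, and 5 arrays per group set the precision of each mean. The markers of all 7 blood cell types listed were measured, with between 4 and 8 genes tested in each list. On the slides, which held 1 array of each group, a group always had the same position, so that group and position on the slide cannot be told apart.

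CLEC7A was measured by its probe A_24_P235988 on all 20 arrays. In replicates 1 to 5 its level was -1.85, -2.56, -1.47, -3.48 and -2.53 before irradiation and -0.81, -1.66, -0.88, -2.18 and -1.38 at day 2. It was -1.12, -1.10, -1.90, -3.55 and -1.75 at day 5, and -0.75, -1.82, -0.55, -2.71 and -2.08 at day 30. Replicate 4 was the lowest in each of the 4 groups, and each group overlapped the others, whereas every replicate stood above its own pre-irradiation value at day 2 and again at day 30.

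The mean CLEC7A level was 0.99 ± 0.16 (SE, n = 5 pairs) higher at day 2 than before irradiation, or 1.99-fold, with a Benjamini-Hochberg adjusted p of 0.131 by limma. Pairs differed by between 0.59 and 1.30, and the level was higher in 5 of 5 pairs, as it was for 6.17% of the tested probes. At day 5 the difference was 0.49 ± 0.27 with 3 of 5 pairs higher (limma adjusted p = 0.543), and 0.25 without replicate 2. At day 30 it was 0.80 ± 0.17, or 1.74-fold, and again positive in 5 of 5 pairs, which held for 7.41% of the tested probes (limma adjusted p = 0.127). Neither day passed the study's threshold of p under 0.005 with an FDR under 10%, taken here over all 19961 tested probes. At these cut-offs the study, with other software, reported far more genes than were called here. The lowest adjusted p at day 2 came with the deposited log2 values, where 5653 probes were tested. Over the alternatives the adjusted p at day 2 ranged from 0.0434 to 0.439, past the threshold in 4 of 17, and at day 30 from 0.0649 to 0.455, past it in 1 of 17. The difference at day 2 was tight only within pairs: with the slide as a block its SE was 0.45 (adjusted p = 0.438), within slides it was positive on 3 of 5, between -0.33 and 2.67, and with both the replicate number and the slide as blocks over all 20 arrays it was 0.99 ± 0.27 (adjusted p = 0.191). With the normexp background correction the differences were smaller, 0.64 at day 2 and 0.44 at day 30.

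The other CLEC7A probe, A_24_P227415, was measured well above background on 17 arrays. Its levels were -2.46, -3.21, -1.72, -4.34 and -2.93 before irradiation, and -1.62, -2.58, -1.96, -3.44 and -2.61 at day 2. They were -1.68, -2.25, -1.90, -4.46 and -2.25 at day 5, and -1.68, -2.77, -1.86, -2.67 and -3.61 at day 30. All 4 groups overlapped, and replicate 4 stood apart at day 5 below the other 4 arrays. This probe differed from pre-irradiation by 0.49 ± 0.20 at day 2 with 4 of 5 pairs higher (limma adjusted p = 0.31), by 0.42 ± 0.22 at day 5 (adjusted p = 0.508) and by 0.42 ± 0.32 at day 30 (adjusted p = 0.522). Over the 20 arrays the levels of both CLEC7A probes had a Pearson r of 0.87, where arrays share animals and the scaling of the array. A_24_P227415 thus had the smaller difference at days 2 and 30, and the gap between the probes was not tested.

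CLEC4A (DCIR) carries an inhibitory motif and is found on dendritic cells, monocytes and neutrophils. Its level in replicates 1 to 5 was 1.04, 1.07, 1.41, 1.23 and 2.01 before irradiation and 3.02, 0.95, 3.41, 2.39 and 2.93 at day 2. It was 2.16, 1.59, 1.83, 0.45 and 3.05 at day 5, and 3.87, 1.44, 1.91, 1.17 and 3.09 at day 30. At day 2 the 4 arrays other than replicate 2 lay above all pre-irradiation arrays, and replicate 2 lay below them all.

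The CLEC4A difference at day 2 was 1.19 ± 0.31, or 2.28-fold, with 4 of 5 pairs higher (limma adjusted p = 0.196). Without replicate 2 it was 1.51 ± 0.24 (limma adjusted p = 0.0674) and passed the study's threshold, as did 588 of 19961 probes in that fit. With normexp the CLEC4A difference was 0.69. Within slides it was positive on 4 of 5, between -0.46 and 1.86. Over the alternatives the adjusted p ranged from 0.063 to 0.513. At day 5 the difference was 0.47 ± 0.28 (limma adjusted p = 0.56), from 0.30 without replicate 1 to 0.78 without replicate 4. At day 30 it was 0.94 ± 0.38, or 1.92-fold, with 4 of 5 pairs higher (limma adjusted p = 0.254). Replicate 1 carried much of the day 30 value, which was 0.47 ± 0.22 without it (limma adjusted p = 0.393). The unadjusted p was no longer under 0.05 without replicate 1 or without replicate 5.

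CLEC12A (MICL), an inhibitory receptor of granulocytes and monocytes that binds uric acid crystals, was well above background on 19 arrays. Its level was -2.63, -3.48, -1.53, -4.16 and -2.86 before irradiation and -2.19, -3.65, -3.04, -3.57 and -2.45 at day 2. It was -1.74, -3.15, -2.22, -2.97 and -2.64 at day 5, and -0.81, -3.34, -1.86, -3.37 and -2.68 at day 30. The pre-irradiation arrays alone spanned most of the range, and the groups overlapped throughout. The difference was -0.05 ± 0.31 at day 2, 0.39 ± 0.27 at day 5 and 0.52 ± 0.30 at day 30 (limma adjusted p = 0.956, adjusted p = 0.608 and adjusted p = 0.396). At day 2 the direction turned without replicate 3, to 0.32, and under another background correction. The day 5 value was 0.19 without replicate 4 and 0.66 without replicate 3, and the day 30 value was 0.20 without replicate 1.

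CLEC10A (MGL), which binds terminal galactose and N-acetylgalactosamine and marks CD1C-positive dendritic cells, was well above background on 18 arrays. Its level was -2.85, -2.43, -1.62, -2.75 and -3.65 before irradiation and -2.75, -2.35, -3.26, -3.27 and -3.34 at day 2. It was -2.74, -2.83, -1.69, -3.56 and -2.08 at day 5, and -3.33, -2.41, -2.91, -3.14 and -3.44 at day 30. No group stood apart from another. The difference was -0.33 ± 0.29 at day 2, 0.08 ± 0.32 at day 5 and -0.38 ± 0.24 at day 30 (limma adjusted p = 0.603, adjusted p = 0.945 and adjusted p = 0.432). Each of these signs turned under another scaling or background correction.

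CLEC4D (MCL), an activating receptor for mycobacterial glycolipid that pairs with CLEC4E, was the dimmest probe that was kept, with exactly 5 arrays well above background. On 10 of its 20 arrays the scanner software had put a floor value in place of the signal, on 4 before irradiation and on 2 in each later group, and levels at that floor have no order. Its level was -5.42, -6.36, -6.00, -3.86 and -6.14 before irradiation and -2.86, -6.14, -3.26, -6.20 and -4.81 at day 2. It was -5.34, -6.33, -3.33, -6.23 and -4.50 at day 5, and -3.64, -6.30, -6.13, -5.95 and -4.87 at day 30. The arrays well above background were replicate 4 before irradiation, replicates 1 and 3 at day 2, replicate 3 at day 5 and replicate 1 at day 30. With 1 pre-irradiation array measured and every group mean below -4.00, the mean of the lowest signals well above background on the pre-irradiation arrays, the size of a CLEC4D difference is not given, and the limma fit, which took the floor values as they stand, had adjusted p-values of 0.548, 0.831 and 0.876 at days 2, 5 and 30.

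**Figure D1:**
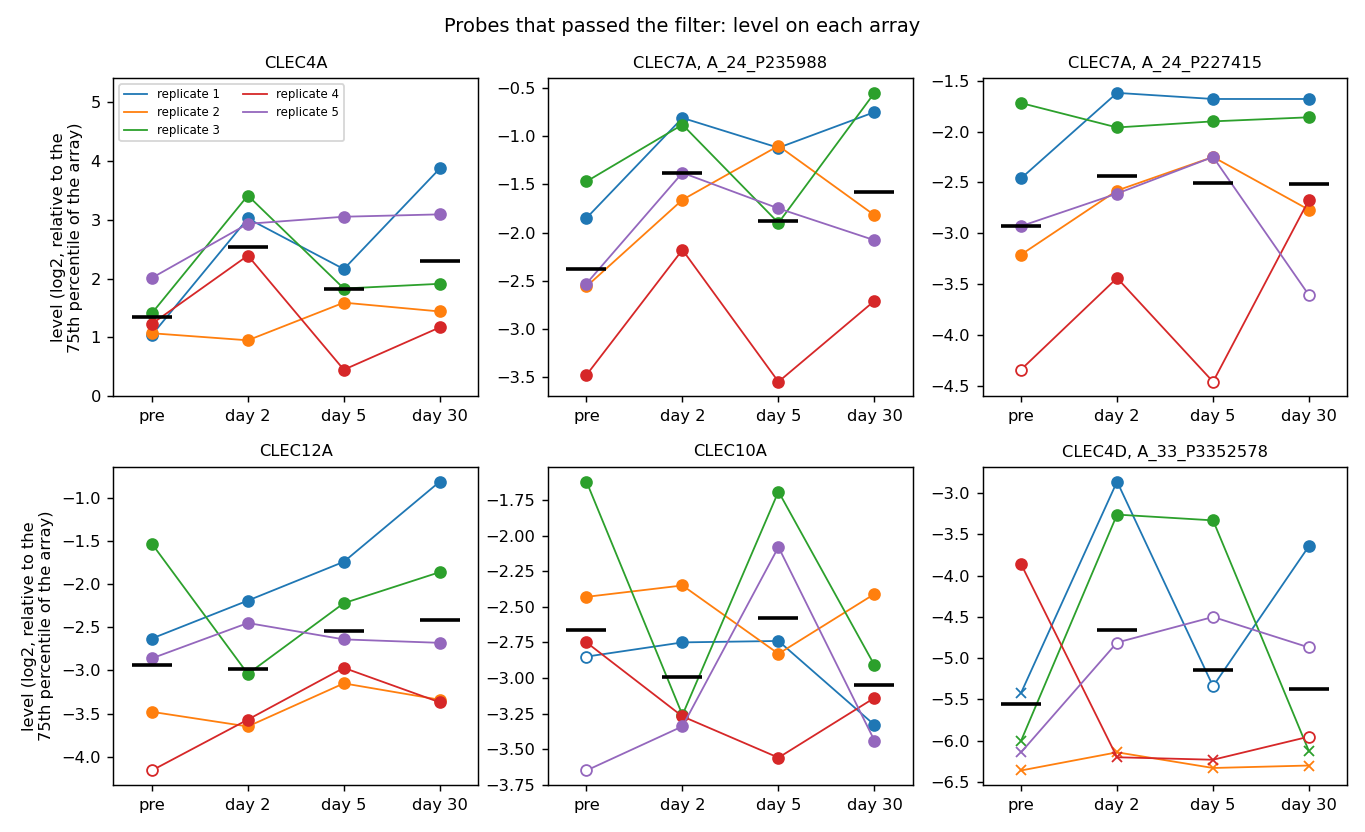
The 6 probes that were kept, with the level on each array (log2, relative to the 75th percentile of the array) for pre-irradiation and days 2, 5 and 30. Lines join arrays of 1 replicate number, black bars are group means, open circles were not well above background and crosses mark the floor value. All 5 lines of CLEC7A A_24_P235988 lead up from pre-irradiation to day 2, as do 4 of 5 of CLEC4A, and those of CLEC10A go both ways.

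Set beside all probes, none of the 5 member genes with a tested probe was called at day 2, where 12 probes (0.0601%) were called, and 2 of the 5 had an unadjusted limma p under 0.05, against 15% of all probes. At day 5, 0 member genes were called and 0 had an unadjusted p under 0.05, against 0% and 11.2% of all probes by limma, although the second count was 2 without replicate 3 and 2 without replicate 4. At day 30, 0 were called and 2 had an unadjusted p under 0.05, against 0% and 17.5% of all probes by limma. The median difference over these 5 genes was 0.90, 0.41 and 0.52 at days 2, 5 and 30, against -0.04, 0.03 and -0.02 over all tested probes. This median is a description of the genes that were bright enough to be tested, and the middle value at days 2 and 5 was that of CLEC4D, with 10 arrays at the floor, so that it measures no shift on those days. At day 30 it was that of CLEC12A, and 0.20 without replicate 1. Without the filter on dim probes, where CLEC4D is read by its other probe, the median over all 7 genes at day 2 was -0.05, that of CLEC12A.

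**Figure D2:**
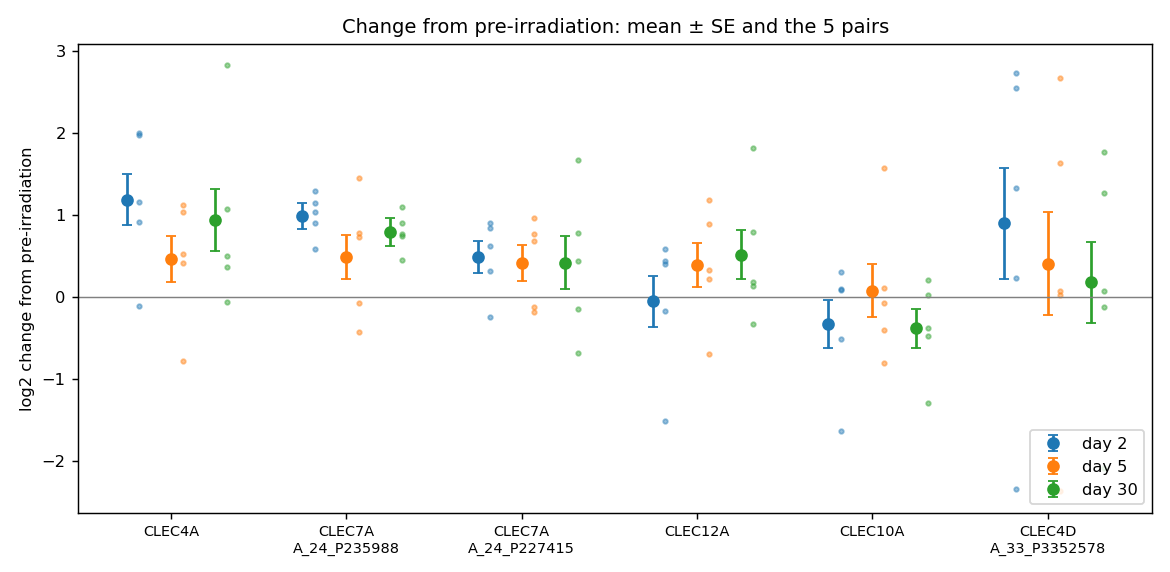
Difference from pre-irradiation (log2) for the 6 probes that were kept. Large points with bars are the mean ± SE of 5 pairs at days 2, 5 and 30, and small points are the single pairs. CLEC7A A_24_P235988 has the tightest pairs at days 2 and 30, from 0.59 to 1.30 at day 2, but not at day 5. Those of CLEC4D, which rest in part on the floor value, run from -2.34 to 2.74 at day 2.

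The days were also compared with each other. CLEC7A A_24_P235988 was ordered day 2, day 30, day 5 and pre-irradiation by its means of -1.38, -1.58, -1.88 and -2.38, and none of the neighbours in that order differed at an unadjusted p under 0.05. From day 2 to day 30 it differed by -0.20 ± 0.19 (limma adjusted p = 0.657) and from day 2 to day 5 by -0.50 ± 0.28 (adjusted p = 0.972). CLEC4A had the same order, with means of 2.54, 2.30, 1.82 and 1.35, and its difference from day 2 to day 5 was -0.72 ± 0.38 (limma adjusted p = 0.972). CLEC12A was 0.44 ± 0.19 higher at day 5 than at day 2 (limma adjusted p = 0.972) and 0.57 ± 0.26 higher at day 30 than at day 2 (adjusted p = 0.408). None of the 5 member genes in this fit was called and none had an unadjusted limma p under 0.05 between days. By limma 0%, 0.0501% and 0% of all probes were called between days 2 and 5, days 2 and 30, and days 5 and 30, and 3.56%, 12.8% and 8.48% had an unadjusted p under 0.05.

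The probes below the filter were looked at for whether they could be seen at all. CLEC4E (MINCLE), the receptor for mycobacterial cord factor and for a protein released by dead cells, missed the limit by 1 array, with 0 arrays well above background before irradiation, 2 at day 2, and 1 each at days 5 and 30. Its level was -5.58, -6.43, -5.23, -6.64 and -4.94 before irradiation and -4.56, -5.12, -3.78, -3.99 and -3.91 at day 2. It was -3.35, -4.44, -3.86, -6.35 and -4.60 at day 5, and -4.12, -4.66, -4.84, -4.88 and -4.61 at day 30. As listed, every pair was higher on every day, which held for 4.33%, 5.76% and 4.91% of all probes at days 2, 5 and 30, whether or not they were kept. The floor value had been used on 2 arrays before irradiation and 1 at day 5, and replicate 4, at the floor on both, has no order at day 5. At day 30 the lowest array was listed above the highest pre-irradiation array, as for 0.56% of all probes, but 4 of the 5 day 30 arrays and all pre-irradiation arrays were not well above background, so that dim signals are ordered here and not measured levels.

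As no pre-irradiation array measured CLEC4E, these levels hold only a bound. The group means were -5.76 before irradiation and -4.27, -4.52 and -4.62 at days 2, 5 and 30. The lowest signals well above background on the pre-irradiation arrays averaged -4.00, which lies above each later mean, so no fold is given. In a fit that also kept the dim probes, limma gave adjusted p-values of 0.243, 0.641 and 0.26 on the 3 days.

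CLEC5A (MDL-1), which pairs with the adaptor TYROBP on monocytes and neutrophils, was well above background on 1 array, replicate 1 of day 30. Its level was -4.41, -6.31, -5.53, -6.28 and -5.35 before irradiation and -4.79, -5.96, -5.81, -5.58 and -6.25 at day 2. It was -5.11, -5.25, -4.55, -6.09 and -6.08 at day 5, and -3.28, -5.01, -5.02, -4.06 and -4.97 at day 30. The floor value had been used on 7 of the arrays up to day 5 and on 0 at day 30. The day 30 mean of -4.47 lay below the limit of -4.00 for the pre-irradiation arrays, so that no fold is given (limma adjusted p = 0.278 in the fit that kept dim probes). In that fit CLEC5A also had an unadjusted p under 0.05 for day 30 against day 2 and against day 5, with adjusted p = 0.254 and adjusted p = 0.716. The second CLEC4D probe, A_33_P3258977, was well above background on 3 arrays, 1 each before irradiation and at days 5 and 30, with levels between -6.05 and -3.05 over all arrays and limma adjusted p-values of 0.691, 0.952 and 0.896 at days 2, 5 and 30 in that fit.

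**Figure D3:**
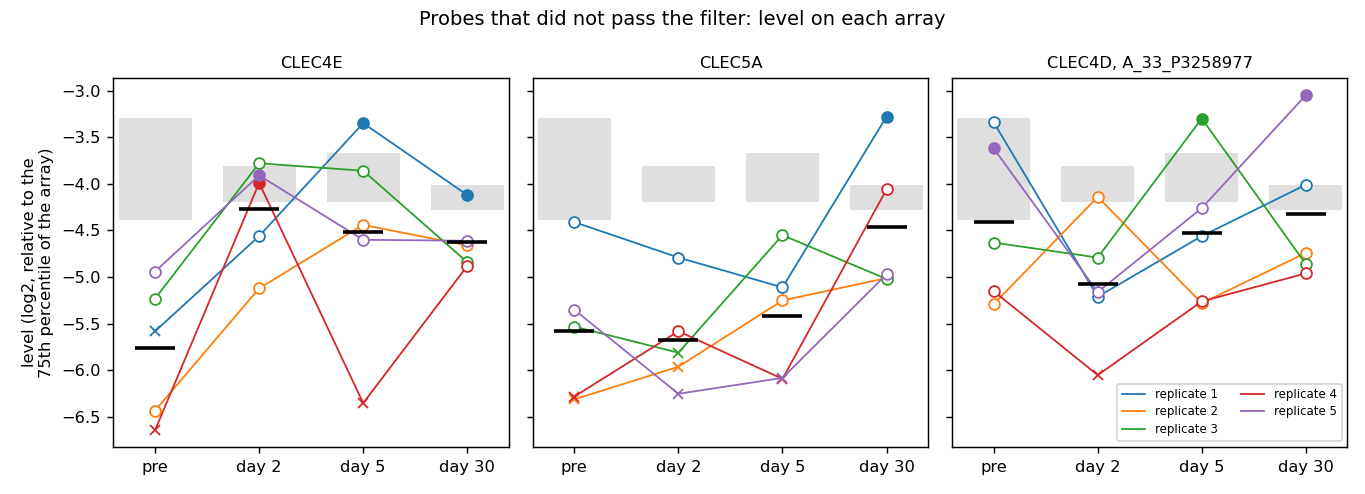
The 3 probes that were not kept, with the level on each array (log2, relative to the 75th percentile of the array). Symbols and lines are as in the plot of the kept probes, and each grey band spans the lowest level well above background over the 5 arrays of the group. The 5 day 30 arrays of CLEC4E sit between -4.88 and -4.12, above all its pre-irradiation arrays, and 4 of them are under the band.

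Signalling partners were taken from a list of 18 genes, of which 17 were tested and BCL10 was not. At day 2, 7 of the 17 had an unadjusted limma p under 0.05 with a higher level and 2 with a lower one, while 8 did not, against 15% of all probes. At day 5 these counts were 2, 1 and 14, and at day 30 they were 1, 2 and 14, against 11.2% and 17.5% of all probes, which 3 of 17 on these days is not far from. None was called on any day. The median difference of the list was 0.26, 0.02 and 0.10 at days 2, 5 and 30.

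FCER1G, the Fc receptor gamma chain used by CLEC4D and CLEC4E, differed by 0.66 ± 0.14 at day 2 with 5 of 5 pairs higher (limma adjusted p = 0.166). TYROBP (DAP12), the adaptor of CLEC5A, differed by 0.67 ± 0.17, 0.60 ± 0.17 and 0.59 ± 0.21 at days 2, 5 and 30 (limma adjusted p = 0.195, adjusted p = 0.328 and adjusted p = 0.222). HCST, an adaptor of activating receptors on T and NK cells as well as myeloid cells, differed by -1.02 ± 0.28, -0.58 ± 0.20 and -0.56 ± 0.20 (limma adjusted p = 0.204, adjusted p = 0.369 and adjusted p = 0.219).

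Downstream of the adaptors, CARD9, the scaffold that links SYK to NF-kB, differed by 0.50 ± 0.19 at day 2 (limma adjusted p = 0.28) and PRKCD, the kinase that acts on CARD9, by 0.51 ± 0.17 (limma adjusted p = 0.253). The Src family kinases LYN and SRC differed by 0.69 ± 0.18 and 0.61 ± 0.21 at day 2 (limma adjusted p = 0.196 and adjusted p = 0.262). SYK itself differed by 0.26 ± 0.18, 0.02 ± 0.15 and 0.29 ± 0.20 (limma adjusted p = 0.517, adjusted p = 0.968 and adjusted p = 0.475). NFATC2, a transcription factor downstream of calcium, differed by -0.65 ± 0.26 at day 2 and -0.85 ± 0.32 at day 30 (limma adjusted p = 0.311 and adjusted p = 0.236). The phosphatases of the inhibitory arm, PTPN6, PTPN11 and INPP5D, had no unadjusted p under 0.05 against pre-irradiation on any day.

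**Figure D4:**
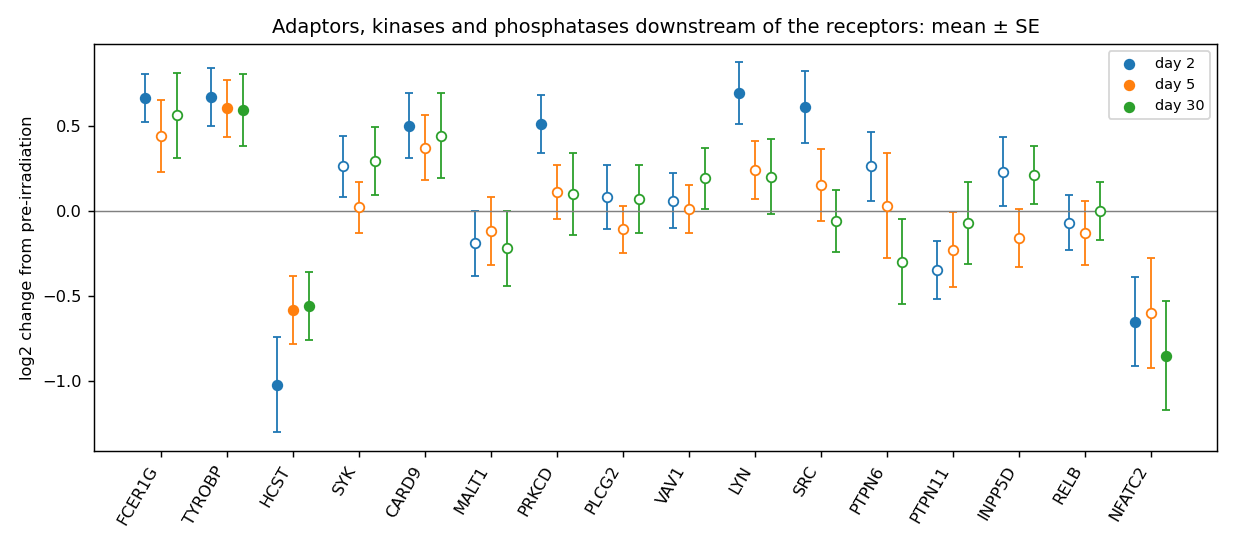
Difference from pre-irradiation (log2, mean ± SE of 5 pairs) of 16 tested genes that act downstream of the receptors, at days 2, 5 and 30. Filled points have an unadjusted limma p under 0.05. TYROBP is filled on all 3 days above 0 and HCST on all 3 days below 0, and SYK is open throughout.

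Of 22 other C-type lectins 16 were tested. At day 2, 4 had an unadjusted limma p under 0.05 with a higher level and 1 with a lower one, at day 5 these counts were 2 and 1, and at day 30 they were 2 and 2. Of all probes 15%, 11.2% and 17.5% had such a p on these days in either direction, and 3 and 4 of 16 at days 5 and 30 are not far from those shares. None was called. CLEC1B, the podoplanin receptor of platelets, differed by 1.40 ± 0.32, 1.06 ± 0.20 and 0.60 ± 0.23 at days 2, 5 and 30, with 5 of 5 pairs higher on each day (limma adjusted p = 0.17, adjusted p = 0.279 and adjusted p = 0.241). CLEC4G, a lectin described in liver and lymph node sinusoids, differed by 1.94 ± 0.42 and 1.10 ± 0.34 at days 2 and 5 and by -0.03 ± 0.26 at day 30 (limma adjusted p = 0.166, adjusted p = 0.344 and adjusted p = 0.961). CLEC1B had 3 tested probes and CLEC4G had 2, of which only the brightest was read.

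Among the remaining lectins, OLR1, the receptor for oxidised low density lipoprotein, neighbours CLEC7A. It was well above background on 0 arrays before irradiation, 1 each at days 2 and 5 and 3 at day 30, so that it met the filter only through later arrays. Its day 30 mean was -3.52 and takes in arrays not well above background. The lowest signals well above background on the pre-irradiation arrays averaged -4.00. No fold is given for OLR1, and the limma fit took its unmeasured values as they stand (adjusted p = 0.229). At day 30 OLR1 is among the lectins counted as higher. CLEC11A, a secreted growth factor, differed by 0.42 ± 0.15 at day 2 (limma adjusted p = 0.275), and CD302, a receptor of monocytes and macrophages, by 0.36 ± 0.14 (limma adjusted p = 0.306). CLEC17A, a lectin of B cells, differed by -0.66 ± 0.22, -0.65 ± 0.17 and -0.63 ± 0.25 on the 3 days (limma adjusted p = 0.252, adjusted p = 0.319 and adjusted p = 0.255), and CLEC4M by -0.52 ± 0.21 at day 30 (limma adjusted p = 0.256).

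Markers of the cells that bear these receptors were read beside these values. In a bulk sample such as whole blood, more cells of a type, fewer cells of other types and more RNA per cell cannot be told apart. Levels are relative to the signal of the whole array, so the share of other cells enters them too. The study's blood counts after irradiation were not taken on days 2 or 5 and were not used here. Of all probes 8.47%, 7.35% and 7.43% had a higher level with an unadjusted limma p under 0.05 at days 2, 5 and 30, and 6.55%, 3.82% and 10.1% a lower one, which the counts below are read against. Of the monocyte list 6 of 7 genes were tested, and 4, 2 and 4 of them had a higher level with an unadjusted limma p under 0.05 at days 2, 5 and 30. The summed linear level of the list, in units of each array's 75th percentile, ran from 79.1 to 224 before irradiation, 148 to 300 at day 2, 80.9 to 260 at day 5 and 151 to 311 at day 30. Of the neutrophil list 6 of 8 genes were tested, with 4 higher at an unadjusted p under 0.05 on each day, and its sum ran from 119 to 333, 243 to 714, 174 to 581 and 209 to 850 in the same order. The conventional dendritic cell list had 2 of 6 genes higher at day 2 and 0 on the later days, and sums from 14.9 to 35.5, 15.7 to 36.5, 11.9 to 36.0 and 14.5 to 37.0. A linear sum is weighted to the brightest probes of its list. Before irradiation these were CSF3R for neutrophils (mean log2 level 7.60, next MMP9 at 5.03) and CD1C for dendritic cells (4.16, next XCR1 at 0.90). The sums of these 2 lists thus follow mostly CSF3R and CD1C.

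The T and NK cell list had 6, 2 and 2 of 8 genes lower at an unadjusted limma p under 0.05 on days 2, 5 and 30. Its sums ran from 138 to 215 before irradiation, 91.3 to 122 at day 2, 72.6 to 220 at day 5 and 102 to 195 at day 30. The sums of days 5 and 30 thus overlapped those before irradiation. The platelet list had 5 of 5 genes higher at day 2, and 2 and 0 higher at days 5 and 30. Its sums ran from 23.5 to 76.5 before irradiation, 75.8 to 291 at day 2, 55.3 to 124 at day 5 and 43.4 to 59.9 at day 30. Each tested marker had met the same filter of 5 arrays. Of the untested ones LYZ and FCGR3B had no probe by that name. The part of these cell lists in the values of CLEC7A, CLEC4A, CLEC1B and HCST was not tested.

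**Figure D5:**
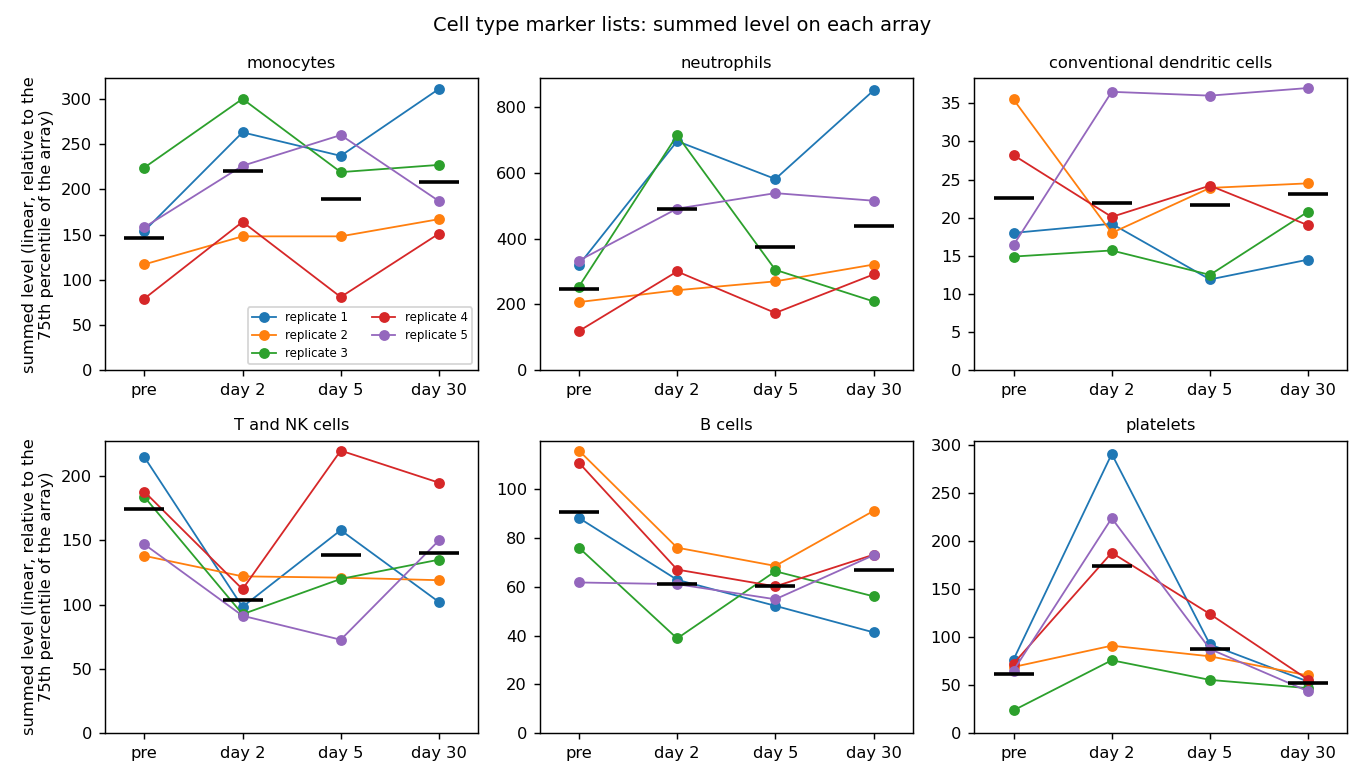
Summed linear level of the tested markers of 6 cell types on each array, in units of the 75th percentile of the array. Each sum is weighted to the brightest probes of its list. Lines join arrays of 1 replicate number and black bars are group means. All 5 lines of monocytes and of neutrophils lead up from pre-irradiation to day 2, and replicate 4 is the lowest line of both lists at that start.

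The genes most like each member over the 20 arrays were named by Pearson r of level, as a description in which arrays share animals. CLEC4A was most like NUMB, NPL and BRI3 (r = 0.96, 0.95 and 0.94). CLEC7A A_24_P235988 was most like GPRIN2, DAGLA and MYOF (r = 0.90, 0.90 and 0.88). CLEC12A was most like TMEM205, EBPL and PCMT1 (r = 0.85, 0.84 and 0.84), and CLEC4D most like RASL11A, ZNF841 and SNX12 (r = 0.79, 0.77 and 0.77). CLEC10A was most like SLC16A11 and TMEM151A and a transcript without a symbol (r = 0.82 each), of which SLC16A11 is its neighbour in the macaque gene table. The other CLEC7A probe, A_24_P227415, had r = 0.95 with FCN1, a gene of the monocyte list, which was picked out after its value was seen. Among the kept probes of different members r ran from -0.25, between CLEC4A and CLEC10A, to 0.69, between CLEC12A and CLEC7A A_24_P227415.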

How the data were processed

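RNA from whole blood, after removal of globin transcripts, was labelled with Cy3 and run on 20 Agilent arrays. For every array the authors deposited the scanner software's output (version 12.0.2.2 per the file headers and 10.7 per the submitters' processing notes). The intensity used is the processed signal, which the authors deposited after background subtraction by that software and without scaling across arrays. A log2 table of 5884 probes was deposited by the authors as well, and on each array it matched the log2 of the processed signal up to a constant shift for at least 99.47% of its values (tolerance 0.001).

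Outlier spots were dropped, replicate spots averaged on the log2 scale, and levels set relative to the array's 75th percentile. Probes with a signal flagged well above background on 5 or more arrays, and with 4 or more pairs, entered limma 3.58.1 (R 4.3.3), fitted to the 2 groups compared with replicate number as block. A call needed p below 0.005 with an FDR below 10% by Benjamini-Hochberg over all tested probes, and an unadjusted p below 0.05 was counted as a second rule. The code was tested on simulated data.

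The study's methods pair comparisons by animal. Deviations from group means correlated by 0.28 on average between arrays of the same number (-0.16 to 0.65). The average of -0.07 between arrays of different numbers nearly follows from this, since the deviations within a group cancel, and is no separate check of the pairing. No arrays were duplicates (highest correlation 0.989). Whether samples of a group came from separate animals is given only as 8 animals in all, with 1 pooled sample, so p-values measure the spread between these samples.

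A listed gene was read by its brightest tested probe. Other tested probes of listed genes, such as those of CLEC1B, CLEC4G, FCER1G, CARD9, NFATC2 and CD302, were not examined on their own. Named were all member probes, the 3 genes most like each member, and genes of the signalling and lectin lists with an unadjusted p below 0.05 on some day, of which 1 signalling gene, kept in the counts, is not reported here. Members and lists were chosen with earlier results of these data known. The alternatives changed the scaling (quantile, median), the background correction (normexp, offset 50), the filter (none, or all 20 arrays), the source (deposited log2 values), the handling of outlier spots, the block (none, slide), the samples fitted (all 20 arrays), the probe summary, the test (each probe alone) and the replicates (each left out). A fit of all 20 arrays with replicate and slide as blocks was added after seeing the data. Figures were drawn with matplotlib 3.10.9 in Python 3.11.15.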

Additional observations from a re-analysis of the deposited data

Results flagged for a closer look

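Over the 36 sets of 5 arrays formed by the 9 probes and 4 groups, 1 array lay far from the others of its group by Dixon's test, where chance alone gives about 1 in 20. It was CLEC7A A_24_P227415 in replicate 4 at day 5, at a level of -4.46 with the other 4 between -2.25 and -1.68. The other CLEC7A probe was also lowest on this array, at -3.55.

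CLEC4E and CLEC5A were below the detection filter and so outside the comparisons, yet had arrays well above background after irradiation and 0 before it. The later groups together hold more arrays than the pre-irradiation group. The share of all probes with this pattern was not counted, so no change is read from it. For CLEC4E these were 2 arrays at day 2, 1 at day 5 and 1 at day 30. For CLEC5A it was 1 array at day 30.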

How the results depend on the processing

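Of the values for single member probes under the alternatives, 540 kept their direction and side of the threshold, 7 came to pass it and 30 turned direction, and of the medians and counts of called genes 204 were unchanged within their tolerance. The causes of the changes below were not tested.

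The count of member genes called at day 2 was 0 of 5 as reported, where 12 of 19961 probes were called. It was 1 of 2 tested when a probe had to be well above background on each of the 20 arrays (CLEC7A, limma adjusted p = 0.0642), where 190 of 15339 probes were called. With the deposited log2 values it was 2 of 3 tested (CLEC4A and CLEC7A, limma adjusted p = 0.063 and 0.0434), against 327 of 5653 probes. With all 20 arrays in 1 limma fit with the replicate block it was 1 of 5 (CLEC7A, adjusted p = 0.0884), against 343 of 19961. With a replicate left out it was between 0 and 2 of 5. The 2 were CLEC4A and CLEC7A without replicate 2, where 588 of 19961 probes were called. At day 30 the count was 1 of 2 tested with that stricter filter (CLEC7A, limma adjusted p = 0.0649), where 695 of 15339 probes were called. The median difference at day 2, 0.90 as reported, was 0.53 with normexp, -0.05 with no filter and from 0.44 to 1.02 with a replicate left out. At day 5 the median of 0.41 ran from 0.12, with normexp, to 0.63, and at day 30 that of 0.52 ran from 0.20, without replicate 1, to 0.87. From day 2 to day 5 the median of -0.49 became 0.26 with no filter, -0.11 with the deposited values and -0.56 to 0.01 with a replicate left out.

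Without the replicate block no member gene was called either, and the medians stayed at 0.90, 0.41 and 0.52. CLEC7A A_24_P235988 then had an SE of 0.38 and an adjusted p of 0.429 at day 2 and 0.46 and 0.433 at day 30, and the member genes with an unadjusted p under 0.05 at day 30 went from 2 to 0.

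The directions that turned were these. Under normexp CLEC12A was 0.32 and CLEC10A 0.28 at day 2, CLEC10A was 0.10 at day 30, CLEC12A was -0.20 and CLEC10A -0.26 from day 2 to day 5, CLEC12A was -0.02 and CLEC4A 0.08 from day 2 to day 30, and CLEC10A was 0.07, CLEC7A A_24_P227415 0.07 and CLEC4D 0.26 from day 5 to day 30. Under median scaling CLEC10A was -0.06 at day 5, and CLEC7A A_24_P227415 was 0.20 from day 5 to day 30. Under quantile normalization both CLEC7A A_24_P227415 and CLEC4D were 0.13 from day 5 to day 30. With the deposited values CLEC7A A_24_P227415 was 0.09 from day 2 to day 5 and 0.18 from day 2 to day 30.

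With a replicate left out, CLEC12A at day 2 ran from -0.21 to 0.32, CLEC10A at day 5 from -0.29 to 0.30, CLEC4D at day 5 from -0.15 to 1.11 and CLEC4D at day 30 from -0.22 to 0.75. From day 2 to day 5 CLEC7A A_24_P227415 ran from -0.18 to 0.17 and CLEC4D from -0.69 to 0.01. From day 2 to day 30 CLEC10A ran from -0.15 to 0.08, CLEC4A from -0.52 to 0.07 and CLEC7A A_24_P227415 from -0.29 to 0.15. From day 5 to day 30 CLEC12A ran from -0.07 to 0.26, CLEC7A A_24_P227415 from -0.46 to 0.33 and CLEC4D from -0.71 to 0.41.

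Counts over all probes moved far more. At day 2 the 12 called of 19961 became 190 of 15339 with the stricter filter and 327 of 5653 with the deposited values. They became 343 with all 20 arrays in 1 fit, 588 without replicate 2, 3 without replicate 3, and 0 without replicates 1, 4 or 5 in turn and with normexp, quantile normalization, no filter or no replicate block. At day 30 the 0 called became 952 with normexp, 695 of 15339 with the stricter filter, 334 of 5653 with the deposited values and 121 with all 20 arrays in 1 fit. At day 5 the 0 called became at most 9, with median scaling, from day 2 to day 30 the 10 called ran from 0 to 164, and from day 5 to day 30 the 0 called became at most 2. The median over all probes was 0.166 at day 2 and 0.107 at day 30 with normexp, and -0.107 at day 5 and 0.157 from day 5 to day 30 with median scaling. Signal over background limits CLEC4D, CLEC4E and CLEC5A, whose dim arrays give bounds only.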

Other observations

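The B cell list, of which 4 of 6 genes were tested, had 4, 4 and 2 genes lower at an unadjusted limma p under 0.05 on days 2, 5 and 30, with medians of -0.56, -0.49 and -0.49, where 6.55%, 3.82% and 10.1% of all probes were lower by that rule. The erythroid list had 5 genes tested, of which 0, 0 and 1 were lower at an unadjusted p under 0.05 on those days. The summed level of its tested genes, in units of each array's 75th percentile, ran from 1850 to 2280 before irradiation and from 991 to 3050 at day 30.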
